A study of Mus musculus with 16 samples.

Results

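The 10 genes described here belong to the BCL2 family, which decides whether a cell keeps or loses the outer membrane of its mitochondria. They were taken from the deposited count table by gene symbol, 10 of 55487 genes, and all 10 passed the filter on low counts that left 14435 genes for testing. Bcl2, Bcl2l1 (protein BCL-XL), Bcl2l2 (BCL-W) and Mcl1 are anti-apoptotic. Bcl2l11 (BIM), Bbc3 (PUMA), Bmf, Bik and Bid are pro-apoptotic BH3-type members, and Bax is a pore-forming effector. RNA was sequenced from 16 samples of mouse leukaemia cells that express the fusion oncogene CBFB-MYH11 together with GFP. Per the design text, the cells carried a doxycycline-inducible shRNA against MYH11 and grew in congenic recipient mice, and GFP-positive cells were sorted before sequencing. Mice with engrafted leukaemia drank doxycycline at 3 mg/ml in 5% sucrose, or 5% sucrose alone as control, for 7 days, and 3 libraries were made per arm from each of bone marrow and spleen. The last group, secondary disease, held 4 spleen libraries from another cohort, labelled as transduced and doxycycline-treated and taken when the mice showed fatal disease. The labels of the control libraries name cells expressing the fusion and do not mention the shRNA, whereas the design text describes 1 transduced cell population for both arms. The sources used here do not give ages, the number of clones or whether replicates came from separate animals; the p-values therefore reflect only how far these libraries scatter, which may be technical. Secondary disease differs from the 7-day groups in cohort and in time as well as in disease stage, and these cannot be told apart.

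Anti-apoptotic members bind and hold BAX, BAK and the BH3-type proteins. BH3-type members are the sensors of the pathway: they occupy the groove of the anti-apoptotic proteins or act on BAX directly, and free BAX then permeabilises mitochondria. In blood cells MCL1 is a short-lived protein on which many progenitors and acute myeloid leukaemias rely, BCL-XL is best known for keeping erythroid precursors and platelets alive, and BCL2 for lymphocytes. RNA levels say nothing of protein stability or binding, and a gene-level count of Bcl2l1 cannot tell its long, anti-apoptotic isoform from its short, pro-apoptotic one.

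Libraries held 12.26 to 39.42 M expected counts (M, 1000000 counts), and the smallest was secondary disease replicate 4. Replicates of a group correlated at r = 0.979 to 0.990 on log2 CPM (counts scaled to a library of 1000000, with TMM factors) in 3 of the 7-day groups, at 0.904 to 0.942 in spleen doxycycline, and at 0.983 to 0.989 among secondary disease replicates 1 to 3. Secondary disease replicate 4 reached only 0.822 to 0.825 with the other 3, so log2 differences of that group are also given without it. Myh11, the gene the shRNA is named for, had 0 to 9 counts in each library and did not enter the test. What these few counts measure is unclear, since no source used here says where fusion reads were assigned, so they do not check the knockdown. Of 12 erythroid markers, 11 were in the table. Their summed level was 2915 to 4826 CPM in bone marrow control, 49366 to 61965 in bone marrow doxycycline, 3535 to 5608 in spleen control, 5997 to 88052 in spleen doxycycline and 4707 to 7417 in secondary disease, with none of the 11 at 0 in a group. Erythroid markers are therefore given beside each result they move with. Neutrophil, macrophage and monocyte, T and NK cell, and endothelial and stromal markers had 0 genes called by edgeR in the 7 comparisons; at an unadjusted p under 0.05 they had 0 to 10 of 10, 0 to 4 of 8, 0 to 2 of 6 and 0 to 2 of 5 tested genes. In sorted bulk samples, fewer cells of a type and less RNA per cell cannot be told apart.

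In control leukaemia the anti-apoptotic transcripts were almost all Mcl1 and Bcl2l1, with Mcl1 ahead in bone marrow and the pair level in spleen. Levels between genes are compared here in TPM (transcripts per 1000000, which corrects for gene length), as deposited. TPM carry no TMM factors, and changes between groups were tested on counts. Mcl1 (chr3:95658788-95663176, plus strand, GRCm38) was at 86.9, 88.4 and 95.0 TPM in the bone marrow controls, and Bcl2l1 (chr2:152780668-152831728, minus strand) at 67.8, 45.6 and 71.0. Mcl1 was higher in 3 of 3 libraries, and the ranges did not overlap. As a share of the summed TPM of the 4 anti-apoptotic members, Mcl1 took 52.9% ± 4.39 (SD, n = 3) and Bcl2l1 35.6% ± 5.04. In spleen controls Mcl1 was at 105, 95.6 and 100.1 TPM and Bcl2l1 at 98.8, 98.9 and 101 TPM. The ranges overlapped, Mcl1 was higher in 1 of 3 libraries, and the shares were 44.9% ± 0.701 for Mcl1 and 44.6% ± 1.59 for Bcl2l1. Counts per kilobase of the longest annotated transcript, another length correction, put Mcl1 ahead in all 3 spleen controls (ratio of Bcl2l1 to Mcl1 0.793 to 0.875), so the order there depends on the length used. Bcl2l2 and Bcl2 were minor. Bcl2l2 (chr14:54883377-54888234, plus strand) made up 7.06% ± 1.04 of the sum in bone marrow and 5.95% ± 0.554 in spleen controls. Bcl2 (chr1:106538178-106714274, minus strand) made up 4.38% ± 0.0645 and 4.55% ± 0.442.

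The upstream sequences of the 2 leading survival genes are shown because their order is what changes between groups, and that of Bmf because it spans the widest relative range of all members with more than a few counts. Windows cover the 250 bases before a RefSeq transcript start (GRCm38.p6), found for 9 of 10 members. Both strands were searched for letters often used by blood transcription factors: GATA as AGATAA or TGATAA, STAT as TTCNNNGAA, RUNX as TGTGGT, forkhead as GTAAACA, CRE as TGACGTCA, the E-box CACGTG, ETS as CCGGAAG and AP-1 as TGANTCA. Capitals mark a match on either strand. Bcl2l1, chr2:152831729-152831978, minus strand, no match to any of the 8:
Bcl2l1 upstream: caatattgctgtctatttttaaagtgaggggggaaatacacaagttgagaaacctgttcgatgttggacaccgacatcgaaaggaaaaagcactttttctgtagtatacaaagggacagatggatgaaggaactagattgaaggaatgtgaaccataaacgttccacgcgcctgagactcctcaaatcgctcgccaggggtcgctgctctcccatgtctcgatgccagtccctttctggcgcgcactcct
Mcl1, chr3:95658471-95658720, plus strand, 1 ETS match:
Mcl1 upstream: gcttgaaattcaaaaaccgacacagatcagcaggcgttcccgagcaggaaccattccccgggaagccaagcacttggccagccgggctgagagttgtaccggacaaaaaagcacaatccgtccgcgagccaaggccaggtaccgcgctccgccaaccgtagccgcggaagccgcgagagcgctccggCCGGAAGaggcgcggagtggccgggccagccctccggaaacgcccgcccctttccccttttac
Bmf, chr2:118547600-118547849, minus strand, before a start that lies inside the gene's span, 3 RUNX matches, of which the last 2 share 1 base; the other 2 Bmf windows, among them that of the gene's outer start, hold no match to any of the 8:
Bmf upstream: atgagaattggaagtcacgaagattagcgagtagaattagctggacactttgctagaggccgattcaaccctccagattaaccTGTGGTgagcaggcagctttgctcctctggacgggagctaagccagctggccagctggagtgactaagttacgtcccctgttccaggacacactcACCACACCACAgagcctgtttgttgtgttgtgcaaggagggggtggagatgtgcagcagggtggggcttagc
Among 32851 windows of the same length, 6.91% held the ETS letters and 14.0% the RUNX letters. A further Bcl2l1 window, chr2:152830718-152830967, minus strand, lies within the gene's own transcribed sequence and holds no match to any of the 8. Another annotated start of Bcl2l1 also lies within its own transcribed sequence and has GATA letters 41 bases upstream, as 16.6% of windows do, shown here with 30 bases around them (chr2:152828513-152828542, minus strand):
Bcl2l1 internal start: attgtgacccaaAGATAAagagagcagagg
These matches describe the letters only; no binding was measured, and a window without a match says nothing of a factor.

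**Figure D1:**
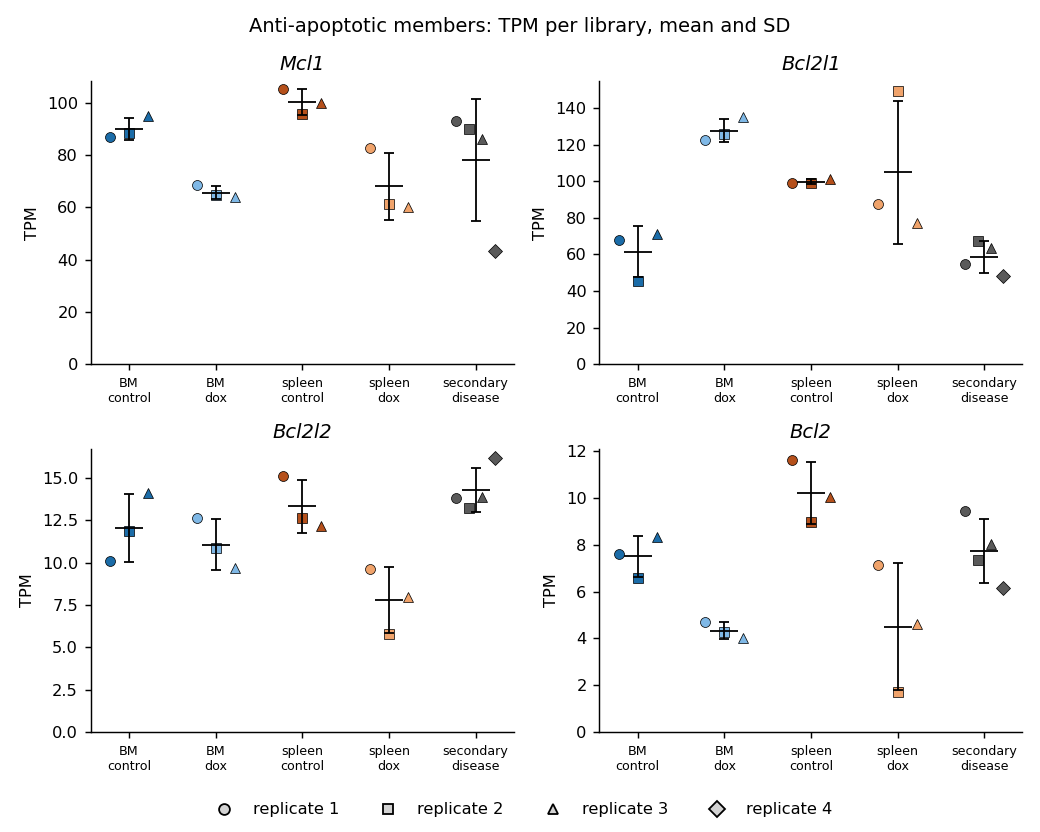
Deposited TPM (y axes, from 0) of the 4 anti-apoptotic members in each of the 16 libraries, by group; symbols are replicates, horizontal marks and bars the mean and SD (n = 3, or 4 in secondary disease). Bcl2l1 is at 122 to 135 TPM in bone marrow doxycycline against 45.6 to 71.0 in bone marrow control, and secondary disease replicate 4 lies below the rest of its group for Mcl1.

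Under doxycycline in bone marrow the order of the survival genes turned: Bcl2l1 rose 2.53-fold and became the leading anti-apoptotic transcript, while no other member passed the test. In CPM, Bcl2l1 was at 109, 79.1 and 98.5 in controls and at 219, 235 and 271 with doxycycline, so every treated library lay above every control. The log2 fold change was 1.34 ± 0.22 (SE), with an adjusted p of 0.00604 (edgeR quasi-likelihood test, Benjamini-Hochberg over all genes tested). Of the 10 members 1 was called, against a background of 6.57% of all genes, or 3.96% called higher. Bcl2l1, Bmf and Bik had an unadjusted p under 0.05, as did 21.9% of all genes. Bik passed the filter on low counts only through doxycycline-treated libraries, so its direction was favoured by the filter and is no support. The call held in 13 of 14 alternative analyses and was lost without bone marrow control replicate 2 (log2 1.20, adjusted p 0.0530), the control lowest in Bcl2l1. Erythroid markers moved with it: 8 of 11 rose and the other 3 did not pass the test, among them Alas2, an enzyme of haem synthesis, by 4.77 ± 0.87 on the log2 scale (adjusted p 0.0101). Summed megakaryocyte markers were at 351 to 431 CPM in controls and 79.4 to 111 CPM with doxycycline, and 2 of 4 tested fell. Of 7 leukaemic progenitor markers tested, 1 rose (Gata2, 1.36 ± 0.32, adjusted p 0.0249) and 6 did not pass; the median of the 7 was −0.47, and their sum was 2398 to 2623 CPM in controls and 2028 to 2369 CPM with doxycycline. The part of these cell types in the Bcl2l1 result was not tested.

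Mcl1 was at 226, 234 and 211 CPM in bone marrow controls and at 188, 186 and 197 CPM with doxycycline. The treated libraries were all lower, yet the log2 difference of −0.23 ± 0.16 did not pass (adjusted p 0.441). In TPM, Bcl2l1 stood at 122, 126 and 135 with doxycycline, and Mcl1 at 68.4, 64.8 and 63.9. The ratio of Bcl2l1 to Mcl1 thus went from 0.516 to 0.781 in controls to 1.79 to 2.11 with doxycycline, with no overlap. Bcl2l1 then made up 61.1% ± 2.34 of the anti-apoptotic sum and Mcl1 31.5% ± 1.40. The sum itself was 171 ± 18.0 TPM in controls and 209 ± 3.46 TPM with doxycycline. Shares are parts of 1 sum, so a larger share of one member makes the others' smaller.

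Bcl2 was at 40.7, 34.1 and 37.3 CPM in bone marrow controls and at 26.7, 25.9 and 24.8 CPM with doxycycline. Its ranges did not overlap, but the log2 difference of −0.53 ± 0.32 missed the threshold (adjusted p 0.366). Bcl2l2 overlapped between the groups (26.8 to 31.5 against 29.8 to 32.0 CPM), with a log2 difference of 0.04 ± 0.18 (adjusted p 0.933). Across the 10 members, 7 had CPM ranges that did not overlap, 4 higher and 3 lower with doxycycline, against 47.8% of all genes tested (23.1% higher and 24.6% lower). The median log2 difference of the 10, with Bik included, was 0.21, beside −0.02 over all genes. The spread used in this test is shared by all 5 groups. When the model held no spleen library, 6 members were called (Bcl2 and Bmf lower; Bcl2l1, Bbc3, Bik and Bid higher), where 36.6% of all genes were called.

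**Figure D2:**
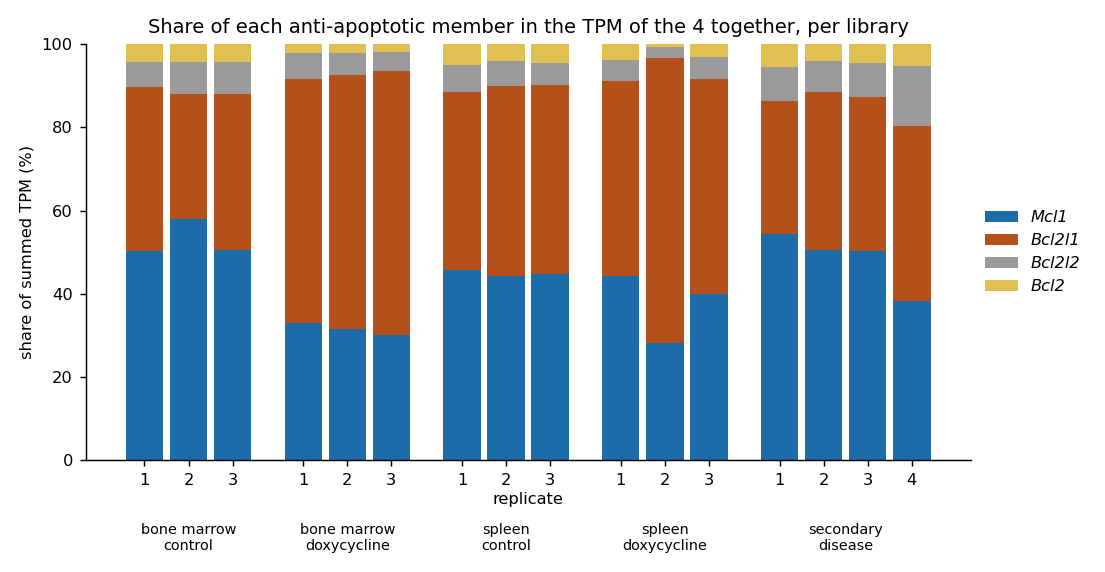
Share of each anti-apoptotic member (y axis, percent of the summed TPM of Mcl1, Bcl2l1, Bcl2l2 and Bcl2) in every library, 1 bar per replicate. Bcl2l1 takes 58.8 to 63.5% in bone marrow doxycycline and 29.9 to 39.3% in bone marrow control.

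In spleen, 7 days of doxycycline gave uneven libraries, and no member passed the test. Bcl2l1 was at 146, 161 and 156 CPM in controls and at 158, 301 and 169 CPM with doxycycline. Only replicate 2 was far above the controls, and the groups overlapped. The log2 difference was 0.44 ± 0.22 (adjusted p 0.438), and 0.08 ± 0.16 without replicate 2 (adjusted p 0.936). Of the 10 members 0 were called by edgeR, by DESeq2 or by limma-voom, where edgeR called 0.741% of all genes, and 3 members (Bcl2, Bmf and Bik) had an unadjusted p under 0.05, as did 12.4% of all genes. Erythroid markers were also uneven: their sum was 5997 CPM in replicate 1, 88052 in replicate 2 and 42100 in replicate 3, and 4 of 11 rose. Summed leukaemic progenitor markers were at 2330, 607 and 2263 CPM in replicates 1, 2 and 3, and at 2728 to 2844 CPM in controls. Megakaryocyte markers summed to 790, 24.4 and 325 CPM, and to 349 to 429 CPM in controls. By edgeR, 0 of 7 progenitor and 0 of 4 megakaryocyte markers were called. The part of these cell types in the spread of Bcl2l1 was not tested. In the plot of Bcl2l1 against erythroid markers, replicate 2 is the library highest in both.

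Anti-apoptotic members other than Bcl2l1 were lower in every treated spleen library than in every control, without passing the test. Bcl2 was at 55.1, 47.4 and 48.9 CPM in controls and at 39.1, 11.3 and 30.4 with doxycycline (log2 −0.90 ± 0.32, adjusted p 0.217). Bcl2l2 went from 30.8, 31.1 and 28.6 CPM to 26.1, 17.5 and 26.0 (log2 −0.38 ± 0.18, adjusted p 0.422). Mcl1 was at 244, 246 and 239 CPM against 229, 195 and 197 (log2 −0.23 ± 0.16, adjusted p 0.624). With Bmf these made 4 members with ranges that did not overlap, all lower, where 20.1% of all genes did not overlap and 10.7% were lower. Without spleen doxycycline replicate 1, the treated library lowest in erythroid markers, 2 members were called, Bcl2 at −1.28 ± 0.32 (adjusted p 0.0249) and Bmf at −5.13 ± 1.08 (adjusted p 0.00957), where 9.13% of all genes were called. Without replicate 2, the library lowest in Bcl2, Bcl2l2 and Bmf, the differences were smaller, at −0.54 ± 0.19 for Bcl2 (adjusted p 0.317), −0.21 ± 0.16 for Bcl2l2 (0.753) and −1.91 ± 0.69 for Bmf (0.312).

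By TPM Bcl2l1 exceeded Mcl1 in 3 of 3 treated spleen libraries, at 87.7 against 82.9, 149 against 61.3 and 77.3 against 60.0 TPM. The shares were 55.6% ± 11.4 for Bcl2l1 and 37.4% ± 8.38 for Mcl1. The lead is small in replicate 1, and counts per kilobase of the longest annotated transcript put Mcl1 ahead in that library (ratio of Bcl2l1 to Mcl1 0.917, against 1.06 by TPM).

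An interaction term compared the doxycycline effect in spleen with that in marrow. The effect on Bcl2l1 was smaller in spleen by 0.90 ± 0.31 on the log2 scale, and this difference did not pass (adjusted p 0.410). Of the 10 members 0 were called by edgeR, DESeq2 or limma-voom, where edgeR called 0.0485% of all genes. Bcl2l1 was the member with an unadjusted p under 0.05, as were 7.63% of all genes. Without spleen doxycycline replicate 2 the difference passed, at −1.26 ± 0.21 (adjusted p 0.00526), where 4.32% of all genes were called. Over the other alternatives it ran down to −0.73 in size, without replicate 1 of that group (adjusted p 0.447), and kept its sign.

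**Figure D3:**
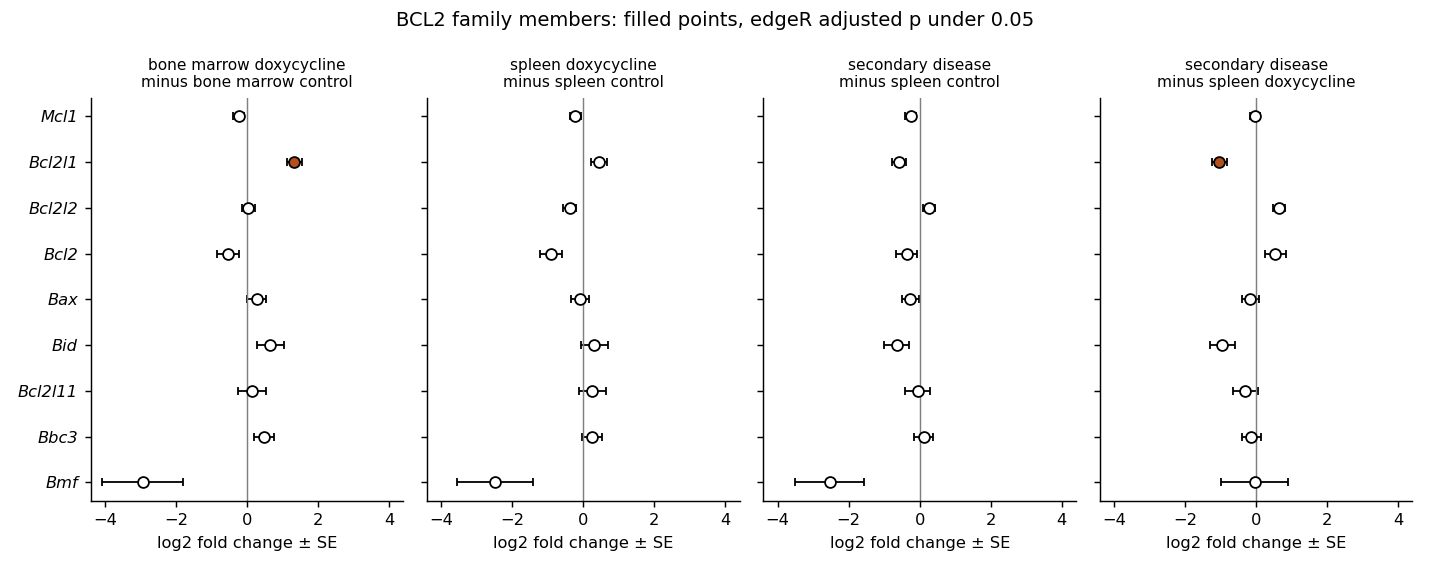
Log2 fold change (x axes) with its standard error for 9 members in 4 comparisons, from the edgeR model over all 16 libraries; Bik is left out because its counts are too few for a fold change. Filled points passed an adjusted p under 0.05: Bcl2l1 at 1.34 in bone marrow doxycycline and at −1.03 in secondary disease against spleen doxycycline.

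In secondary disease, labelled as doxycycline-treated for a time the labels do not give, Bcl2l1 was at 84.9, 113, 104 and 107 CPM. These 4 values lay below every spleen doxycycline library (158 to 301 CPM) and every spleen control (146 to 161 CPM). Against spleen doxycycline, Bcl2l1 was 0.488-fold, a log2 change of −1.03 ± 0.20 (adjusted p 0.0315). Of the 10 members 1 was called, against a background of 0.928% of all genes, or 0.707% called lower. Bcl2l1, Bcl2l2 and Bid had an unadjusted p under 0.05, as did 17.4% of all genes. Leaving out secondary disease replicate 4 kept the call (−1.06 ± 0.22, adjusted p 0.0198). The call was lost without secondary disease replicate 1 (adjusted p 0.0779), replicate 2 (0.0707) or replicate 3 (0.0830), and without spleen doxycycline replicate 2 (−0.68 ± 0.15, adjusted p 0.0799). It was also lost with no filter on low counts (adjusted p 0.0651) and with only the 7 libraries compared in the model (adjusted p 0.887), where 0 genes were called. Erythroid markers again moved alongside: 4 of 11 fell against spleen doxycycline, and their part in the result was not tested.

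Against spleen control the same gene was 0.662-fold (log2 −0.59 ± 0.20), which did not pass (adjusted p 0.164). Erythroid markers overlapped between these groups, at 4707 to 7417 CPM in secondary disease and 3535 to 5608 CPM in spleen control, with 0 of 11 called by edgeR and 1 at an unadjusted p under 0.05. Of the 10 members 0 were called by edgeR, DESeq2 or limma-voom against a background of 2.03% in edgeR, and Bcl2l1 and Bmf had an unadjusted p under 0.05, as did 15.1% of all genes. Ranges did not overlap for 4 members, Bcl2l1, Mcl1, Bmf and Bid, all lower in secondary disease, where 21.3% of all genes did not overlap and 12.4% were lower. Both comparisons use the same secondary disease libraries.

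Mcl1 led the survival genes again in secondary disease replicates 1 to 3, at 93.0, 90.0 and 86.0 TPM against 54.8, 67.5 and 63.6 TPM of Bcl2l1. Replicate 4 had 43.4 TPM of Mcl1 and 47.9 of Bcl2l1, so Mcl1 was ahead in 3 of 4 libraries; per kilobase of the longest transcript the ratio in replicate 4 was 0.997. Shares over the 4 libraries were 48.3% ± 7.02 for Mcl1 and 37.3% ± 4.17 for Bcl2l1. Without replicate 4 they were 51.7% and 35.7%. In bone marrow control, where Mcl1 also led, the shares were 52.9% and 35.6%, in cells of another tissue. In CPM, Mcl1 in secondary disease (225, 229, 215 and 142) differed from spleen control by −0.26 ± 0.15 on the log2 scale (adjusted p 0.446) and from spleen doxycycline by −0.03 ± 0.15 (adjusted p 0.948), neither past the threshold. Without replicate 4 these were −0.12 ± 0.09 (adjusted p 0.638) and 0.11 ± 0.09 (adjusted p 0.522).

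Bcl2 and Bcl2l2 were higher in secondary disease than in spleen doxycycline by point estimate, without passing the test. Bcl2l2 was at 31.1, 32.4, 33.6 and 47.2 CPM against 26.1, 17.5 and 26.0, with no overlap. The log2 difference was 0.64 ± 0.17 (adjusted p 0.0870). DESeq2 called it (adjusted p 0.0108), as did edgeR without spleen doxycycline replicate 1 (adjusted p 0.0309). Bcl2 was at 47.7, 37.8, 42.0 and 28.3 CPM against 39.1, 11.3 and 30.4 CPM, and the groups overlapped (log2 0.53 ± 0.30, adjusted p 0.386). Against spleen control, the differences were 0.26 ± 0.17 for Bcl2l2 (adjusted p 0.548) and −0.37 ± 0.29 for Bcl2 (adjusted p 0.632). Ranges of secondary disease and spleen doxycycline did not overlap for 3 members (Bcl2l2 higher, Bcl2l1 and Bid lower), where 7.24% of all genes did not overlap (3.08% higher and 4.16% lower).

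Without secondary disease replicate 4, the log2 differences from spleen control were −0.62 for Bcl2l1, −0.25 for Bcl2, 0.10 for Bcl2l2, −0.35 for Bid, −0.49 for Bax, 0.22 for Bcl2l11, −0.04 for Bbc3 and −2.61 for Bmf, with adjusted p-values of 0.161 to 0.980 in edgeR. Those from spleen doxycycline, other than the called Bcl2l1 and Bid, were 0.66 for Bcl2, 0.48 for Bcl2l2, −0.39 for Bax, −0.03 for Bcl2l11, −0.29 for Bbc3 and −0.13 for Bmf, with adjusted p-values of 0.0636 to 0.963. No member was called against spleen control, and Bcl2l1 was the member that was called against spleen doxycycline both with and without that library. Bcl2 against spleen doxycycline also moved with the treated libraries, to 0.90 without replicate 1 (adjusted p 0.0888) and to 0.16 without replicate 2 (adjusted p 0.775).

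**Figure D4:**
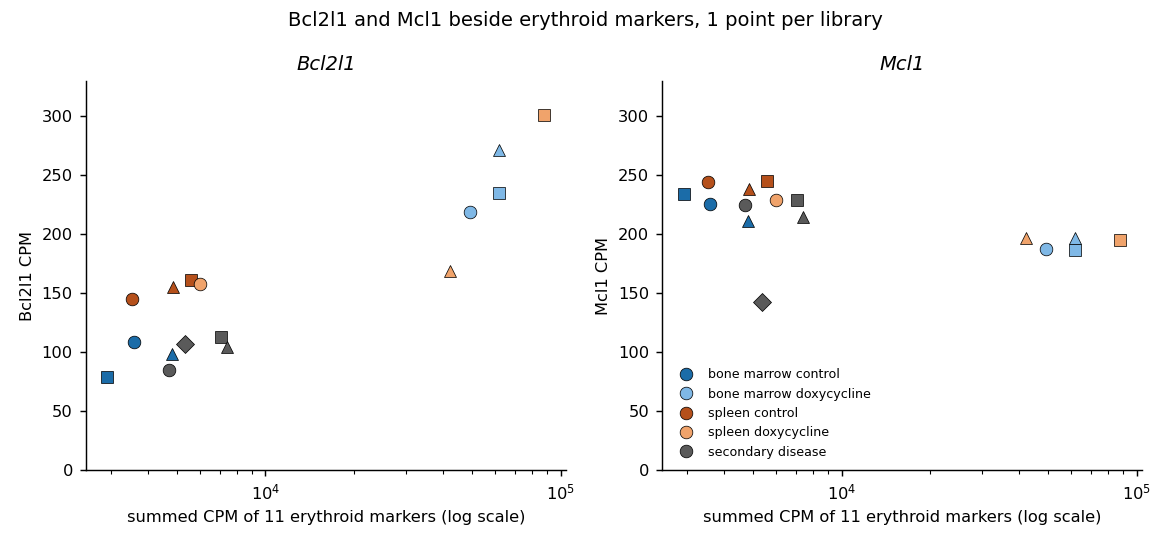
CPM of Bcl2l1 (left) and Mcl1 (right, same y axis from 0) against the summed CPM of 11 erythroid markers (log axis), 1 point per library, coloured by group with symbols for replicates as in the TPM plot. The 3 bone marrow doxycycline libraries and spleen doxycycline replicates 2 and 3 have sums of 42100 to 88052 CPM. All other libraries have sums of 2915 to 7417 CPM, and Bcl2l1 among them ranges from 79.1 to 161 CPM.

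Among the 11 libraries with erythroid marker sums of 2915 to 7417 CPM, Bcl2l1 was not level: the spleen controls and spleen doxycycline replicate 1 were at 146 to 161 CPM, and the bone marrow control and secondary disease libraries at 79.1 to 113. Spleen doxycycline replicate 3, with a sum of 42100 CPM, had 169 CPM of Bcl2l1, close to spleen controls. Epor, the erythropoietin receptor, which is one of the 11 markers and also of the regulators of transcription listed below, was at 87.6 to 100.2 CPM in bone marrow control and at 134 to 151 CPM in bone marrow doxycycline.

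Among the pro-apoptotic members, Bax was the most abundant of all 10 genes in every group, and no pro-apoptotic member was called in any of the 7 comparisons. Bax (chr7:45461697-45466898, minus strand), the effector, averaged 418 ± 49.7 TPM in bone marrow control, 431 ± 36.4 in bone marrow doxycycline, 555 ± 19.5 in spleen control, 414 ± 195 in spleen doxycycline and 407 ± 29.7 in secondary disease. Its lowest library, at 290.0 TPM, still had more Bax than any library had of another member. The treated spleen libraries were spread from 290.0 to 639 TPM, below and above the controls. Log2 differences on the count scale were 0.27 ± 0.26 in bone marrow doxycycline (adjusted p 0.616), −0.10 ± 0.26 in spleen doxycycline (0.935), −0.27 ± 0.24 in secondary disease against spleen control (0.681) and −0.17 ± 0.24 against spleen doxycycline (0.779). Secondary disease replicate 4 was at 319 CPM of Bax and replicates 1 to 3 at 180 to 205 CPM, below the spleen controls (263 to 279 CPM); without replicate 4 the difference from spleen control was −0.49 ± 0.21 (adjusted p 0.289). In bone marrow the difference of Bax was 0.43 without control replicate 1 and 0.14 without control replicate 3.

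Bbc3 (chr7:16308393-16318205, plus strand) encodes the BH3-type protein PUMA and is a classical p53 target. Among the BH3-type members defined at the start it was the leading transcript in every group, with means of 60.4 to 73.1 TPM. Bnip3l, listed below with the other BCL2 family and BH3-type genes, was higher in every group, with means of 147 to 238 TPM. In bone marrow Bbc3 was at 69.3, 53.2 and 61.1 CPM in controls and at 75.9, 99.0 and 81.3 CPM with doxycycline. All treated libraries were higher, but the log2 difference of 0.48 ± 0.29 missed the threshold (adjusted p 0.378). In spleen doxycycline the 3 libraries were at 113, 43.1 and 58.5 CPM around controls of 56.0 to 65.6 CPM (log2 0.25 ± 0.29, adjusted p 0.819). Secondary disease overlapped both spleen groups at 47.9 to 84.5 CPM, with log2 differences of 0.11 ± 0.27 (adjusted p 0.908) and −0.14 ± 0.27 (adjusted p 0.847).

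Bmf (chr2:118528757-118549687, minus strand), another BH3-type member, was the member with the clearest difference between the control tissues by level. It was at 21.0, 21.9 and 18.8 CPM in spleen control and at 3.75, 3.68 and 3.49 CPM in bone marrow control. Every other group lay below spleen control: 0.512, 0.700 and 0.197 CPM in bone marrow doxycycline, 9.70, 0 and 1.18 in spleen doxycycline, and 1.90, 4.49, 3.67 and 4.08 in secondary disease. The 0 in spleen doxycycline replicate 2 allows up to 0.120 CPM, the level of 3 counts, and covers counting error only. Spleen doxycycline replicates lay far apart, and no comparison of Bmf passed with the spread shared by all groups. The log2 difference was 2.50 ± 1.07 for spleen against bone marrow control (adjusted p 0.621), −2.94 ± 1.13 for doxycycline in bone marrow (0.136), −2.49 ± 1.06 for doxycycline in spleen (0.348) and −2.54 ± 0.96 for secondary disease against spleen control (0.216). Against spleen doxycycline, secondary disease differed by −0.05 ± 0.95 (adjusted p 0.988). With only the groups compared in the model, 3 of these were called, at 2.50 ± 0.13 between the control tissues (adjusted p 1.58e-06), −2.93 ± 0.41 in bone marrow doxycycline (0.000225) and −2.53 ± 0.30 in secondary disease against spleen control (0.00749). The shares of all genes called there were 14.7, 36.6 and 3.07%.

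**Figure D5:**
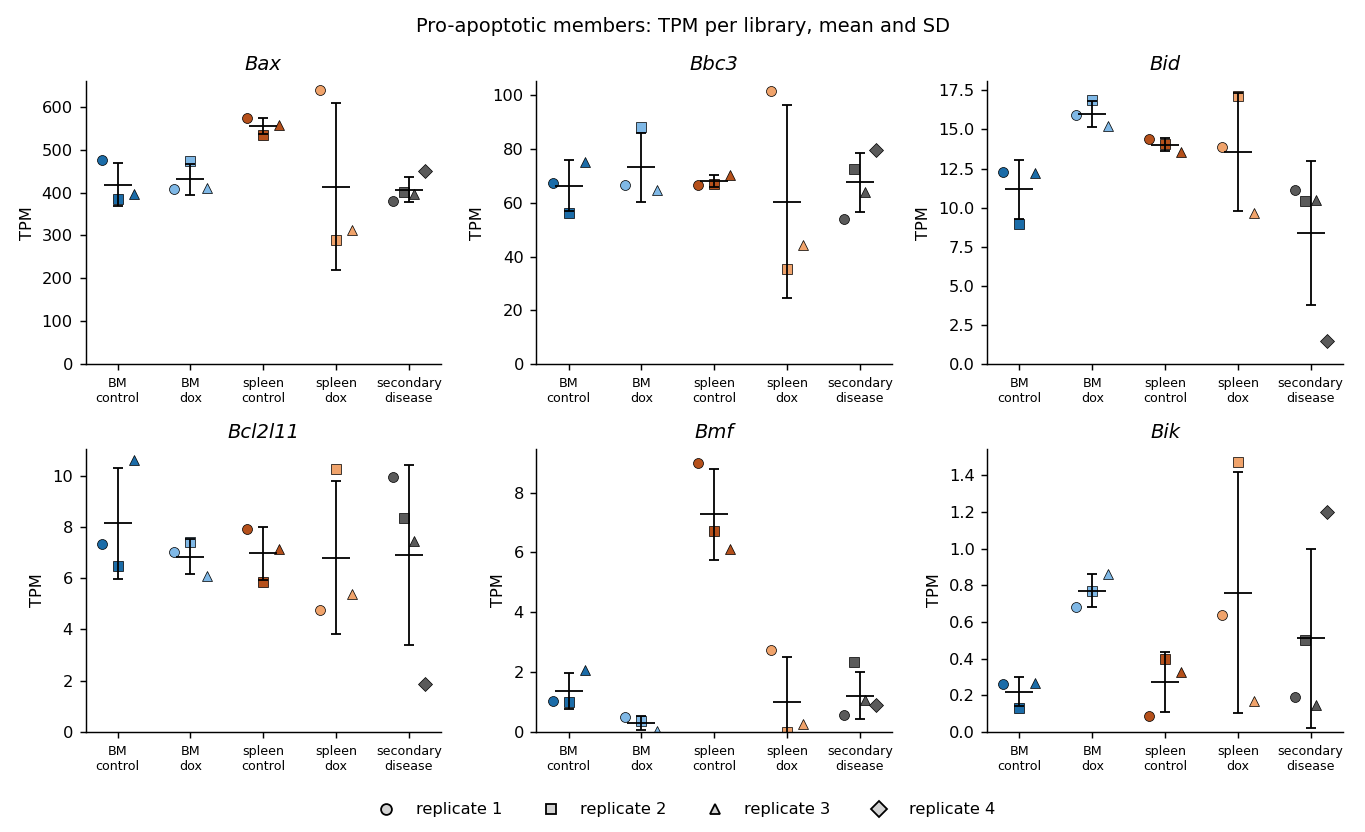
Deposited TPM (y axes, from 0, scales differ) of the 6 pro-apoptotic members in each library by group; symbols are replicates, horizontal marks and bars the mean and SD. Bmf is at 6.10 to 8.98 TPM in spleen control and at most 2.75 in every other library, and Bid of secondary disease replicate 4 (1.47 TPM) lies far below its group.

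Bcl2l11 (chr2:128126038-128162547, plus strand), the BH3-type protein BIM, varied little between groups, with means of 6.80 to 8.14 TPM. In CPM it was at 15.3 to 19.8 in bone marrow control, 18.8 to 20.1 in bone marrow doxycycline, 16.4 to 20.1 in spleen control and 14.5 to 32.3 in spleen doxycycline. Secondary disease replicates 1 to 3 were at 24.4, 19.7 and 19.5 CPM and replicate 4 at 5.98 CPM. Log2 differences were 0.14 ± 0.38 in bone marrow doxycycline (adjusted p 0.889), 0.25 ± 0.38 in spleen doxycycline (0.880), −0.06 ± 0.36 in secondary disease against spleen control (0.965) and −0.31 ± 0.36 against spleen doxycycline (0.724).

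Bid (chr6:120891930-120916853, minus strand), which links death receptors to mitochondria, was at 18.5, 14.7 and 15.7 CPM in bone marrow control and at 23.8, 27.5 and 25.8 CPM with doxycycline. All treated libraries were higher, at a log2 difference of 0.66 ± 0.38 that did not pass (adjusted p 0.354). Leaving secondary disease replicate 4 out of the model, with the bone marrow libraries unchanged, gave 0.66 ± 0.15 (adjusted p 0.0118), where 17% of all genes were called. Secondary disease was at 15.1, 14.8, 14.6 and 3.30 CPM, below every spleen doxycycline library (19.5 to 29.2 CPM), with a log2 difference of −0.96 ± 0.35 (adjusted p 0.179). Without replicate 4 it was −0.66 ± 0.15 (adjusted p 0.0279), where 4.98% of all genes were called. Against spleen control it was −0.65 ± 0.35 (adjusted p 0.426), or −0.35 ± 0.15 without replicate 4 (adjusted p 0.298), and spleen doxycycline differed from control by 0.31 ± 0.38 (adjusted p 0.828). Bid values are uncertain: 628 of its 3550 exon bases lie under exons of Bcl2l13 on the opposite strand, and no source used here says that strand was kept. Bcl2l13 was at 196 to 222 CPM in bone marrow control, 359 to 388 in bone marrow doxycycline, 220 to 227 in spleen control, 167 to 412 in spleen doxycycline and 92.8 to 222 in secondary disease, lowest in replicate 4.

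Bik (chr15:83526862-83544634, plus strand), a BH3-type protein of the endoplasmic reticulum, was near the floor. It had 2, 2 and 3 counts in bone marrow controls and 10, 13 and 15 with doxycycline, 1, 3 and 7 in spleen controls and 12, 27 and 3 with doxycycline, and 1, 7, 2 and 5 in secondary disease. The bone marrow groups did not overlap, and the adjusted p of 0.127 did not pass. No fold is given, since 3 counts are the floor taken for a library. Controls had at most 7 counts, so Bik passed the filter on low counts only through doxycycline-treated libraries. Its higher values with doxycycline were thus favoured by the filter. The counts of members and the median log2 difference given above for doxycycline include Bik, which is no support in them.

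Between tissues, all members with ranges that did not overlap in controls were higher in spleen: Bcl2, Bcl2l1, Mcl1, Bmf and Bax, 5 of 10, where 32.8% of all genes did not overlap and 16.3% were higher. None of the 10 was called by edgeR, DESeq2 or limma-voom, against 0.187% of all genes in edgeR, and Bcl2l1 and Bmf had an unadjusted p under 0.05, as did 6.92% of all genes. Bcl2l1 in spleen control was 1.61 times its level in bone marrow control (log2 0.69 ± 0.22, adjusted p 0.304), with 4871 CPM of erythroid markers at the median against 3580 in bone marrow control. Summed neutrophil markers were at 50.1 to 159 CPM in spleen control and 868 to 1303 CPM in bone marrow control, and their part in these differences was not tested. With only these 6 libraries in the model, 4 members were called: Bcl2l1 at 0.69 ± 0.11 (adjusted p 0.00195), Bmf as above, Bcl2 at 0.44 ± 0.10 (0.0130) and Bax at 0.38 ± 0.11 (0.0420). Under doxycycline, 0 of 10 members were called between the tissues by edgeR, DESeq2 or limma-voom, against 0.0485% of genes in edgeR. Unadjusted p-values were under 0.05 for Bcl2l2 (log2 −0.41 ± 0.18 in spleen relative to marrow, adjusted p 0.431) and Bmf (2.94 ± 1.13, adjusted p 0.339), and for 10.9% of all genes. Of the 10 members only Bcl2l2 had ranges that did not overlap, lower in spleen, where 15.5% of all genes did not overlap and 9.5% were lower. Without spleen doxycycline replicate 2, Bmf was called at 3.52 ± 0.68 (adjusted p 0.00719), where 7.18% of all genes were, and Bcl2l2 was at −0.24 (adjusted p 0.452). Without spleen doxycycline replicate 1, Bmf was at 0.30 (adjusted p 0.971).

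In the rest of the family, 1 gene was called. Of 15 other BCL2 family and BH3-type genes, 8 were tested. In bone marrow doxycycline 1 of the 8 was called, where 6.57% of all genes were. There 2 of the 8 had an unadjusted p under 0.05, as did 21.9% of all genes. Bcl2l15, a distant BCL2 relative, was at 0.449, 0.536 and 0.469 CPM in bone marrow controls and at 7.85, 9.13 and 7.58 CPM with doxycycline, a log2 change of 4.06 ± 1.03 (adjusted p 0.0330). The other 7 did not pass there, and edgeR called 0 of 8 in each of the other 6 comparisons, where 0 to 3 had an unadjusted p under 0.05. The genes named next were chosen after their values were seen. Bak1, the other main effector, averaged 84.9 ± 11.9 TPM in bone marrow control, 61.0 ± 3.52 in bone marrow doxycycline, 89.0 ± 3.26 in spleen control, 58.7 ± 32.1 in spleen doxycycline and 73.7 ± 10.9 in secondary disease, below Bax in each group. With TMM factors its bone marrow difference was smaller. It was at 112, 101 and 114 CPM in bone marrow control and at 88.0, 98.7 and 94.6 CPM in bone marrow doxycycline, and was not called. Pmaip1, which encodes the MCL1-binding BH3-type protein NOXA, reached at most 0.39 TPM in any library. The Bcl2a1 copies, anti-apoptotic genes so similar that reads may be split among them, reached at most 1.84 TPM each. Hrk was listed at 0 and Bok at 0.18 TPM or less in all libraries other than secondary disease replicate 4, which had 2.00 and 9.70 TPM.

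The death machinery around the family was called at about the share of all genes in bone marrow doxycycline (6.57%). Of 20 caspases, apoptosome components and inhibitors of apoptosis, 1 rose in bone marrow doxycycline, Casp6, an executioner caspase, at 33.1, 32.1 and 29.5 CPM against 61.0, 59.3 and 69.0 CPM (log2 1.00 ± 0.19, adjusted p 0.0128), and 8 of 20 had an unadjusted p under 0.05 there, where 21.9% of all genes did. The median of the 20 was −0.18 there, beside −0.02 over all genes, and edgeR called 0 of 20 in the other 6 comparisons (1 to 4 at an unadjusted p under 0.05). Of 13 death receptor genes, Mlkl, the executor of necroptosis, fell in bone marrow doxycycline (log2 −1.54 ± 0.39, adjusted p 0.0325), and 3 of 13 had an unadjusted p under 0.05. Tnfrsf10b, a TRAIL receptor, was at 1.19, 2.66 and 1.08 CPM in spleen control and at 0.124, 0.156, 0 and 0 CPM in secondary disease (adjusted p 0.0193), a low level throughout. It would not have passed the filter on low counts without the spleen controls, where it was highest, so this call is no support for a fall. The remaining 12 did not pass in either comparison, and edgeR called 0 of 13 in the other 5 (0 to 4 at an unadjusted p under 0.05).

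Among known regulators of the family's transcription, 3 of 17 tested rose in bone marrow doxycycline, 1 fell and 13 did not pass, where 6.57% of all genes were called; 10 of 17 had an unadjusted p under 0.05, where 21.9% of all genes did. In the other 6 comparisons 0 were called by edgeR (3 to 7 at an unadjusted p under 0.05). Atf5, a stress-response factor, was at 19.6, 18.7 and 21.9 CPM in controls and at 115, 162 and 131 CPM with doxycycline (log2 2.76 ± 0.38, adjusted p 0.00356). Ddit3 (CHOP), another stress-response factor, rose by 1.46 ± 0.32 (adjusted p 0.0192) and Gata1, the erythroid master regulator, by 0.61 ± 0.14 (adjusted p 0.0246). Jun, an AP-1 subunit, fell (log2 −2.79 ± 0.53, adjusted p 0.0120). Of 15 genes that set the stability or location of the proteins, Pim1, a cytokine-induced kinase, and Btrc, a ubiquitin ligase adaptor, rose in bone marrow doxycycline (2.80 ± 0.45, adjusted p 0.00552, and 1.33 ± 0.34, adjusted p 0.0357). Ywhaz, a 14-3-3 protein, fell (−0.85 ± 0.22, adjusted p 0.0376). Pim1 was lower in secondary disease than in spleen doxycycline (−1.79 ± 0.39, adjusted p 0.0485). No other gene of the 15 was called by edgeR in the 7 comparisons (0 to 4 at an unadjusted p under 0.05 in the other 5). In bone marrow doxycycline, 5 of the 15 had an unadjusted p under 0.05, where 21.9% of all genes did and 6.57% were called. Against spleen doxycycline, 3 of the 15 did in secondary disease, where 17.4% of all genes did and 0.928% were called. The interaction between tissues called none of the genes in these lists.

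The genes whose log2 CPM was most like that of a survival gene over the 16 libraries are given as a description, out of 9091 genes searched and with no test; the 16 points share groups, tissues and erythroid marker levels. For Bcl2l1 they included Pim1 (r = 0.951), Sesn2, a stress-induced gene (0.943), Eif2b4, a subunit of a translation initiation factor (0.940) and Fbxo34 (0.937). Pim1 was at 40.9 to 70.2 CPM in bone marrow control, 382 to 419.7 in bone marrow doxycycline, 93.6 to 99.97 in spleen control and 59.5 to 72.6 in secondary disease. In spleen doxycycline it was at 88.5, 469 and 149 CPM, with replicate 2 highest as for Bcl2l1. For Mcl1 the 5 were Ruvbl1 (0.958), Pla2g4a (0.946), Galnt7 (0.942), Mtap and Bub1b (both 0.937), and for Bcl2 they were Pik3cd (0.972), Cited2 (0.966), Rps6ka2 (0.961), Fcgr2b (0.954) and Mpped2 (0.953).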

How the data were processed

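The 16 libraries were made from RNA of sorted GFP-positive cells after oligo-dT enrichment with the NEBNext Ultra II kit, per the labels' protocols. Trim Galore, FastQC, MultiQC, STAR, RSEM and the build GRCm38 are named in the submitters' processing notes, without versions. The authors deposited expected counts (estimated counts that need not be whole) for 55487 genes, and TPM per library; each column matched 1 sample and 0 were left over. Replicates differed beyond sampling noise in every pair (chi-square over degrees of freedom of at least 9.33).

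Counts were rounded and tested with edgeR 4.0.16 in R 4.3.3 (filterByExpr, TMM, robust quasi-likelihood F-test, two-sided), with the 5 group means fitted jointly and 7 comparisons. P-values were adjusted by Benjamini-Hochberg over 14435 genes, and a gene was called under 0.05. Standard errors are |log2 fold change| / sqrt(F). TPM were described without a test. The scripts were tested on simulated counts. Alternatives were other size factors (DESeq2), other filters (none, or a mean count of 50), a block for replicate number, a model of the compared groups alone, each library omitted once, DESeq2 1.42.0 (Wald), voom weights in limma 3.58.1, and, for TPM, counts per kilobase of the longest GENCODE M21 transcript or Bcl2a1 genes in the sum.

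The members and gene lists were chosen with earlier results of these data known. Named are all members, up to 4 called genes per other list and comparison by smallest p, and for Bcl2, Bcl2l1 and Mcl1 the 5 genes with the highest r, of which 1 is not reported here. The floor of 3 counts covers counting error only. Summed CPM of the other marker lists ranged over the libraries from 2.46 to 1303 (neutrophil), 8.98 to 144 (macrophage and monocyte), 19.5 to 145 (B and plasma cell, with Cd37 called higher in spleen doxycycline and secondary disease than in spleen control), 4.76 to 19.9 (T and NK cell), 24.4 to 790.3 (megakaryocyte), 30.8 to 257 (endothelial and stromal) and 607 to 2844 (leukaemic progenitor).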

Additional observations from a re-analysis of the deposited data

Results flagged for a closer look

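Secondary disease replicate 4 lay apart from the other libraries of its group for 3 members, by the gap to its nearest neighbour relative to the group's range. Bcl2l2 was at 47.2 CPM there and at 31.1 to 33.6 CPM in the other 3 libraries. Mcl1 was at 142 CPM against 215 to 229. Bid was at 3.30 CPM against 14.6 to 15.1, with the overlap with Bcl2l13 described above. The group of 4 libraries was the one large enough for this check, and 3 of 10 members stood apart, where chance gives about 1 in 20. The 10 values come from the same library, which also had the lowest total (12.26 M counts), so they are not independent. Its summed leukaemic progenitor markers were at 1046 CPM against 2302 to 2544 in the other 3 libraries. Macrophage and monocyte markers summed to 144 CPM against 11.2 to 40.6. Its erythroid and megakaryocyte sums lay within the range of the other 3. The part of depth or of these cell types was not tested.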

How the results depend on the processing

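Counts of members called moved as follows. Percentages in brackets are the shares of all genes called in the same setting. For doxycycline in bone marrow (1 in the report), the count was 6 with only the groups compared (36.6%) and 2 with the replicate block (13.6%). It was 2 with secondary disease replicate 4 left out of the model (17%), and 0 to 1 with each library left out (0.154 to 1.55%). For secondary disease against spleen doxycycline (1), it was 0 with no filter (0.0918%) or only the groups compared (0%). It was 2 with the DESeq2 test (6%) and 0 to 2 with each library left out (0 to 8.94%). Where the report has 0, only the groups compared gave 1 for secondary disease against spleen control (3.07%) and 4 between the control tissues (14.7%). Leaving out each library gave 0 to 2 for doxycycline in spleen (0 to 9.13%) and 0 to 1 for the interaction (0 to 4.32%). Between the treated tissues it gave 0 to 1 (0.00665 to 7.18%). Per kilobase of the longest transcript, Bcl2l1 took 58.2% and Mcl1 34.6% of the sum in bone marrow doxycycline, and 41.1% and 48.7% in spleen control. The cause was not tested, other than that leaving out libraries or groups changes the spread.

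Some uncalled log2 differences changed sign. Against spleen control, the replicate block gave 0.23 for Bcl2l11 and −0.032 for Bbc3 in secondary disease. Against spleen doxycycline, it gave 0.11 for Mcl1, 0.0086 for Bcl2l11 and 0.33 for Bmf, while Mcl1 was 0.00048 with no filter and 0.0027 with only the groups compared, and Bmf 2.29 with limma-voom. With each library left out, the ranges were −0.016 to 0.067 for Bcl2l2 in bone marrow doxycycline. In spleen doxycycline they were −0.25 to 0.51 for Bbc3, −0.16 to 0.47 for Bcl2l11 and −0.48 to 0.077 for Bax. In secondary disease against control they were −0.25 to 0.22 for Bcl2l11 and −0.038 to 0.22 for Bbc3. Against spleen doxycycline they were −0.11 to 0.11 for Mcl1, −0.40 to 0.35 for Bbc3, −0.63 to 2.59 for Bmf, −0.39 to 0.20 for Bax and −0.52 to 0.10 for Bcl2l11. DESeq2 gave no adjusted p for 1 or 2 members per comparison. Over all genes, calls ran from 23 to 4929 (949 in the report) for bone marrow doxycycline, 0 to 1364 (107) for spleen doxycycline, 0 to 645 (7) for the interaction, 61 to 756 (293) and 0 to 1336 (134) for secondary disease against spleen control and spleen doxycycline, and 0 to 1927 (27) and 0 to 1072 (7) between tissues.

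Same-numbered samples correlated at −0.40 to 0.24 in their deviations from group means, with 3 of 18 pairs over 0.1. Many of these pairs set a control against a treated library, which cannot share a mouse. Same-numbered marrow and spleen libraries of the same arm correlated at −0.128, 0.0779 and 0.238 in controls, and at −0.169, 0.0209 and 0.152 with doxycycline. So few pairs of mixed sign cannot decide whether replicate numbers pair the tissues. Depth limits Bik in every group, and Bmf in bone marrow doxycycline (5 to 19 counts) and spleen doxycycline replicate 2 (0 counts).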
